A study of Homo sapiens with 12 samples.

Results

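Cells transduced with AAV9-AIPL1co were compared with non-transduced cells across all genes. The comparison used 5 of the 12 libraries of the series, 3 of AAV9-AIPL1co (replicates 1 to 3) and 2 of the control (replicates 2 and 3). They were chosen by their group labels. Control replicate 1 lay away from its group and was left out of the test, as in the original analysis. Where the levels of a gene are printed by library, its value is given too. The counts over all genes were repeated with it, and the counts with it are printed for some of the gene lists.

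ARPE-19, an established human cell line from retinal pigment epithelium, was used throughout. Transduced and control cells alike had first spent 120 h in 3 µM of the synthetic retinoid fenretinide, given to push the line towards a neuron-like state. The transduced cells then received 100000 vector genomes per cell of AAV9-AIPL1co, an adeno-associated virus of serotype 9 that carries a codon-optimized AIPL1 sequence. The control cells received no vector, so that in this comparison alone an effect of the capsid and the vector DNA cannot be told apart from an effect of the AIPL1 sequence. Values of AAV9-GFP, a vector without AIPL1, are given at the end. The time from transduction to RNA is stated in the sources as 24 h in one place and as 18 h in another. RNA was poly(A)-selected and sequenced in 60-base reads. The methods describe the libraries of a group as biological replicates, without saying whether they came from separate cultures or transductions. The p-values measure the spread between libraries of 1 cell line, estimated over the 11 libraries of 4 groups in the fit.

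AIPL1 is a co-chaperone of photoreceptors that works with HSP90 in folding the phosphodiesterase of the visual cascade, and loss of it causes Leber congenital amaurosis. Retinal pigment epithelium takes up and digests shed photoreceptor outer segments every day, and lysosomes are therefore a large part of its known biology. The lysosomal genes share a control element, the CLEAR element, which is built around the letters CACGTG and is bound by TFEB and related factors.

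Among the genes that rose here were MCOLN1, CTSA and CTSD of the lysosome and AMDHD2 and GNPDA1 of amino sugar breakdown, and the promoter stretches of these 5 are shown because they hold those letters. The sequences are from RefSeq on GRCh38.p14, 5′ to 3′ on the strand of the gene, and cover 100 bases before the start. Capitals mark each CACGTG, which reads the same on both strands. AMDHD2 is at chr16:2520271-2520370 on the plus strand, GNPDA1 at chr5:142013028-142013127 on the minus strand, MCOLN1 at chr19:7522524-7522623 on the plus strand, CTSA at chr20:45891235-45891334 on the plus strand and CTSD at chr11:1763928-1764027 on the minus strand.
AMDHD2: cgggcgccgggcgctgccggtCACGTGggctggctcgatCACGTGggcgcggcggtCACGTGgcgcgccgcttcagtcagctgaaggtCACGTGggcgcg
GNPDA1: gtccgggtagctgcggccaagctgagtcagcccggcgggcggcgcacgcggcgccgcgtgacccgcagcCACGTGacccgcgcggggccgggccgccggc
MCOLN1: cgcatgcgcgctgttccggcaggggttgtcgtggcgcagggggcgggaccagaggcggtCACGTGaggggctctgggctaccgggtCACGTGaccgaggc
CTSA: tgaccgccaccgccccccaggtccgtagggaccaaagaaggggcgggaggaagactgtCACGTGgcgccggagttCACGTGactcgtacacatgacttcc
CTSD: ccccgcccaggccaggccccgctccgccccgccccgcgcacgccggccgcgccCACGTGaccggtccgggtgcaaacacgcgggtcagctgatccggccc

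Within 250 bases before the start, CACGTG was found in 6.49% of 27305 promoters of the genome and in 8.93% of the 10487 promoters of genes tested here. Its share was 13.4% of 186 promoters of genes that were upregulated and 6.34% of 142 promoters of genes that were downregulated by the thresholds given below. CACGTG was 1 of 13 motifs searched. In upregulated genes the AP-1 site TGANTCA had a share of 9.14%, against 3.96% of genes tested. The TATA box TATAAA had 11.3% against 5.13%, and the interferon-stimulated response element core AAANNGAAA had 5.91% against 6.03%. In the list of lysosome and autophagy genes 5 of 22 promoters held CACGTG, those of LAMP1, CTSA, CTSD, ATP6V0D1 and MCOLN1. These 5 were among the 12 of the 22 whose genes were called higher. AMDHD2 carried it 4 times within the stretch shown, and CTSA and MCOLN1 carried it 2 times each. These matches describe the letters in the window.

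Depth and cell type came first. The 5 libraries held 6869652 to 9075660 gene counts, and the reads of the codon-optimized AIPL1 entry numbered 11, 13 and 19 in AAV9-AIPL1co replicates 1, 2 and 3 and 0 in every other library. Of 23 markers of retinal pigment epithelium, 10 were high enough to test, and the defining genes DCT, RPE65, TRPM1 and TYR were at 0 in all 5 libraries. The summed level of these markers was 4050 to 4346 normalized counts with AAV9-AIPL1co and 7891 to 9193 in the control, with 4788 in control replicate 1. Single members went both ways: of the 10 tested, 2 were higher and 5 lower by the test described below. MERTK had 17.7, 18.1 and 22.3 against 6.59 and 4.13, with 39.9 in control replicate 1. RLBP1 had 22.4, 23.8 and 24.6 against 9.42 and 10.7, with 17.4 in control replicate 1. Among photoreceptor markers GNAT1, PDE6H and RBP3 were at 0, and the summed level was 281 to 313 against 395 to 401, with 327 in control replicate 1. Most of this sum was ROM1, at 274, 239 and 247 against 370 and 356, with 284 in control replicate 1. Of 8 immune markers 5 were at 0, among them PTPRC and CD3E, and the summed level was 21.4 to 31.3 against 20.6 to 30.1, with 13.3 in control replicate 1. Fibroblast markers summed to 404 to 436 against 429 to 450 (754 in control replicate 1), and glial markers to 3906 to 4036 against 2789 to 2975 (3440). Neuronal markers summed to 9488 to 11303 against 11358 to 11865, with 10897 in control replicate 1, inside the transduced range. Most of this sum was UCHL1, at 9204.5, 8650.3 and 7855.6 against 9907.1 and 9567.2, with 7835.5 in control replicate 1. TUBB3 had 23.3, 25.7 and 13.4 against 72.5 and 61.1, with 24.1 in control replicate 1. Of 7 neuronal markers tested, 1 was higher and 1 lower by the test described below. Endothelial markers, none of them high enough to test, summed to 18.1 to 23.5 against 7.43 to 10.4, but control replicate 1 was above every transduced library at 24.9. The part of these shifts in the results below was not tested, and in RNA from whole cultures fewer cells of a kind and less RNA per cell cannot be told apart.

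Of 13896 genes tested by edgeR's quasi-likelihood test, 3107 (22.4%) were higher and 3401 (24.5%) lower with AAV9-AIPL1co at an adjusted p under 0.05, and the median log2 fold change over all of them was -0.02. The counts of gene lists given below may be read against these 2 shares. Differentially expressed genes (DEGs), for which the study asked for an adjusted p under 0.005 and a 3-fold change, numbered 280 up (2.01%) and 200 down (1.44%). With control replicate 1 in the fit there were 156 up and 128 down. In the upregulated set 75 of 280 genes (26.8%) were long noncoding RNAs, against 10.7% of all genes tested, and in the downregulated set 22 of 200 (11%). The median levels of the upregulated DEGs were 63.3 normalized counts with AAV9-AIPL1co and 13.5 in the control, so that much of this set lay at low depth. For the downregulated DEGs they were 15.3 and 57.0.

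All 3 AAV9-AIPL1co libraries lay on one side of all 3 control libraries, replicate 1 included, for 6857 genes (49.3% of those tested). This held for 214 of the 280 upregulated and 170 of the 200 downregulated DEGs. Control replicate 1 was beyond the AAV9-AIPL1co mean in 52 of the 280 and in 19 of the 200. Fold changes also moved with the GC content of the exons: the median log2 fold change was -0.44 in the fifth of genes with the lowest GC (23.1 to 40.8%) and 0.30 in the fifth with the highest (57.0 to 76.0%). For AAV9-GFP against the same controls, which both comparisons share, these medians were -0.37 and 0.22. The upregulated DEGs had a median GC of 53.7% and the downregulated DEGs of 42.7%, against 47.6% over all genes, and the part of GC in single results was not tested beyond the values with GC offsets given below.

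**Figure D1:**
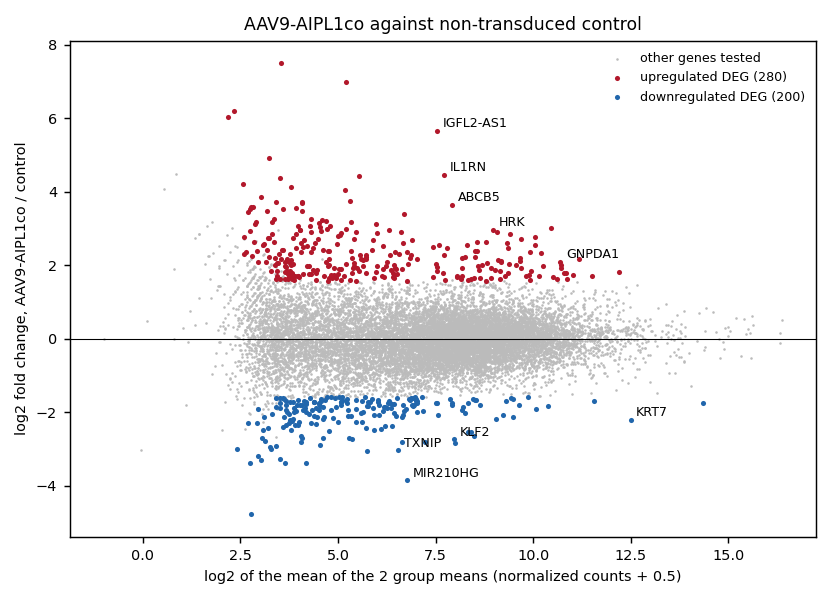
Each point is a gene tested, with the log2 of the mean level of the 2 groups (normalized counts) on the horizontal axis and the log2 fold change of AAV9-AIPL1co over the control on the vertical axis. The 280 upregulated DEGs (red) and the 200 downregulated DEGs (blue) lie mostly at low levels, while KRT7 is downregulated at a high level.

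Upregulated DEGs were ranked by fold change among those without overlap and with a mean of at least 50 normalized counts in the higher group. Of the first 12, 6 encode proteins and 6 are noncoding RNAs or a pseudogene, with the pseudogene IGFL1P1 and the antisense RNA IGFL2-AS1 in front. IL1RN (ENSG00000136689.20, chr2:113099315-113134016), the secreted antagonist of the interleukin-1 receptor, had 387, 447 and 372 normalized counts with AAV9-AIPL1co, 18.8 and 17.3 in control replicates 2 and 3 and 39.9 in control replicate 1. It rose by 4.47 on the log2 scale (SE 0.28, adjusted p = 3.96e-09). ABCB5 (ENSG00000004846.17, chr7:20615667-20777038), an ATP-driven membrane transporter, had 452, 474 and 418 against 40.5 and 31.4, with 144 in control replicate 1, a log2 fold change of 3.64 (SE 0.22, adjusted p = 3.96e-09). The lack of overlap is fixed by the choice, and for both genes control replicate 1 was the highest of the controls.

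GAS1 (ENSG00000180447.7, chr9:86944362-86947506), a membrane protein that acts as a hedgehog co-receptor and was named for growth arrest, had 104, 119 and 111 normalized counts against 12.2 and 13.2, and here control replicate 1 was lower still at 4.15. Its log2 fold change was 3.11 (SE 0.26, adjusted p = 6.73e-08). KLF15 (ENSG00000163884.4, chr3:126342635-126357408), a transcription factor of fasting and glucocorticoid responses, had 62.4, 69.4 and 88.2 against 6.59 and 4.13, with 16.6 in control replicate 1 (log2 fold change 3.76, SE 0.42, adjusted p = 1.61e-06). S1PR3, a receptor for sphingosine 1-phosphate, had 50.3, 67.5 and 74.8 against 11.3 and 4.95, and 35.7 in control replicate 1 (2.99, SE 0.36). That the transduced libraries did not overlap the controls for any of the 3 genes is again fixed by the choice.

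The coactivator gene PPARGC1A (ENSG00000109819.9, chr4:23755041-23904089) encodes PGC-1α, which drives mitochondrial biogenesis. Its levels were 174, 186 and 204 normalized counts with AAV9-AIPL1co, 16.0 and 19.0 in the control and 49.0 in control replicate 1, a log2 fold change of 3.41 (SE 0.24, adjusted p = 1.26e-08). Of 14 PGC-1 coactivators and partners tested, 4 were higher and 3 lower (median -0.08). ESRRA, an orphan nuclear receptor partner, had 979, 1032 and 1072 against 425 and 410, with 436 in control replicate 1 (1.30, SE 0.10, adjusted p = 3.14e-08), and PPARGC1B, the related coactivator, had 46.6, 59.0 and 86.0 against 17.9 and 33.8, with 17.4 in control replicate 1 (1.27, SE 0.33, adjusted p = 0.00416).

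The remaining 6 of these 12 were noncoding genes or a pseudogene: IGFL2-AS1, IGFL1P1, LINC02392, ATP13A4-AS1, SUGCT-AS1 and the lncRNA ENSG00000275216.2 (chr13:109269634-109278512). The last of these had 1764, 2519 and 3224 normalized counts against 304 and 309, with 725 in control replicate 1 (3.03, SE 0.26, adjusted p = 1.08e-07). IGFL1P1 had 214 reads over the transduced libraries and 1 read over both controls, a ratio of 161 with a counting interval of 28.6 to 6392. Control replicate 1 held 37 reads of it, or 30.7 normalized counts beside 52.2, 73.2 and 90.5 with AAV9-AIPL1co, and with that library in the fit the log2 fold change fell from 6.99 to 2.73. IGFL2-AS1 had 217, 336 and 536 normalized counts against 5.65 and 8.25, with 115 in control replicate 1, and its log2 fold change fell from 5.66 to 3.06 in the same way. Control replicate 1 was also near the transduced libraries for ATP13A4-AS1, at 58.9 beside 78.3, 101 and 87.1 against 3.77 and 4.13, and with it in the fit the log2 fold change fell from 4.44 to 1.97. Since the libraries kept no strand, reads of an antisense gene and of its partner cannot be told apart.

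Upregulated DEGs were next to each other in 3 runs of 3 tested genes. The first was S1PR3, SHC3 and ENSG00000224945 (chr9:88990863-89178818), in which SHC3, a neuronal adaptor protein, had 67.1, 118 and 124 normalized counts against 16.0 and 15.7, with 30.7 in control replicate 1 (2.68, SE 0.33, adjusted p = 4.38e-06). The second was ENSG00000267922, IGFL2-AS1 and IGFL1P1 (chr19:46101122-46203160), and the third ANKRD30B, LINC01443 and LINC01444 (chr18:14728272-14974215). In the last run LINC01444 had 58.7, 68.5 and 77.1 against 16.0 and 16.5 (2.05, SE 0.33), and control replicate 1 held 43.2.

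The first 12 downregulated DEGs by the same ranking were MIR210HG, TXNIP, PDK1, SAMD9L, ID4, KLF2, LINC00467, ZMAT1, NPPB, ARRDC3, PPFIA4 and SMAD9. MIR210HG (ENSG00000247095.5, chr11:565657-568457), the host transcript of the hypoxia-induced miR-210, had 9.32, 16.2 and 16.8 normalized counts with AAV9-AIPL1co, 196 and 209 in the control and 51.5 in control replicate 1 (-3.85, SE 0.29, adjusted p = 2.42e-08). TXNIP (ENSG00000265972.6, chr1:145992435-145996579), an α-arrestin that binds thioredoxin and restrains glucose uptake, had 31.7, 14.3 and 13.4 against 169 and 163, and 485 in control replicate 1 (-3.03, SE 0.35, adjusted p = 2.59e-06). That neither gene overlapped between groups is fixed by the choice. Control replicate 1 was the lowest control for MIR210HG and the highest for TXNIP.

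ARRDC3 and ARRDC4 also encode α-arrestins, and the other members of that family were not examined as a list. ARRDC3 had 102, 114 and 83.8 against 570 and 592 (-2.53, SE 0.15, adjusted p = 3.96e-09), with control replicate 1 at 125. ARRDC4, a close relative of TXNIP that was singled out after its values were seen, had 47.5, 41.8 and 44.7 against 185 and 151, with control replicate 1 at 238 (-1.90, SE 0.19, adjusted p = 5.72e-07). Control replicate 1 was thus close to the transduced libraries for ARRDC3 and above the other controls for ARRDC4.

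KLF2 (ENSG00000127528.6, chr19:16324826-16328685), a transcription factor of quiescent endothelium and immune cells that is also an early response gene, had 68.0, 53.3 and 76.0 normalized counts against 455 and 418, with 220 in control replicate 1 (-2.74, SE 0.16, adjusted p = 3.96e-09). NPPB, which encodes the natriuretic peptide BNP, had 96.9, 86.5 and 116 against 518 and 719, with 230 in control replicate 1 (-2.64, SE 0.20, adjusted p = 3.14e-08). PDK1, SAMD9L, ID4 and SMAD9 are described with their groups below. LINC00467, ZMAT1 and PPFIA4 had log2 fold changes of -2.73, -2.70 and -2.47.

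**Figure D2:**
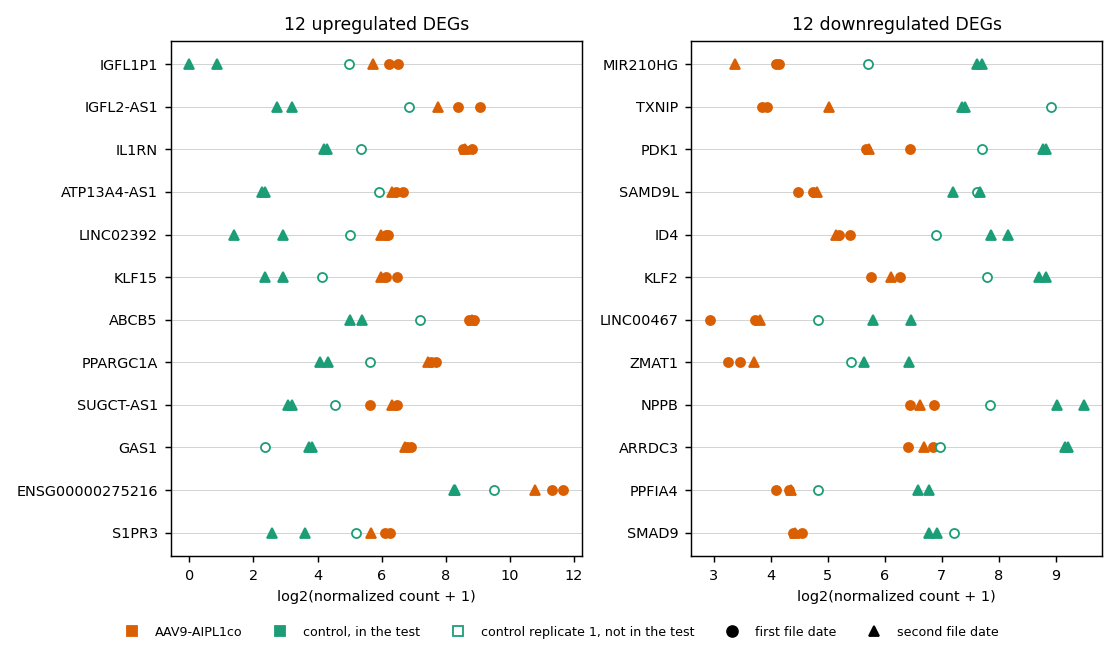
Levels of the 12 upregulated and the 12 downregulated DEGs with the largest fold changes, among those without overlap and with a mean of at least 50 normalized counts in the higher group, in each AAV9-AIPL1co library (orange) and each control library (green), as log2 of normalized counts plus 1. Open symbols mark control replicate 1, and circles and triangles mark the first and the second date in the file names. The choice of genes fixes that the orange points do not overlap the green ones, and the open symbol often lies between the filled green points and the orange points.

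By difference in mean normalized counts, the gains were largest in lysosomal, ferritin and mitochondrial genes. PSAP (chr10:71816298-71851251), the precursor of the saposins that activate lysosomal lipid hydrolases, had 62900, 61259 and 57772 normalized counts against 40519 and 37674, with 43050 in control replicate 1 (0.63, SE 0.10, adjusted p = 6.36e-05). CTSD (chr11:1752752-1764573), the aspartic protease cathepsin D, had 25238, 23731 and 23066 against 14969 and 14646, with 14363 in control replicate 1 (0.70, SE 0.09, adjusted p = 1.35e-05). The ferritin chains FTL and FTH1, which store iron, rose by 0.55 (SE 0.12) and 0.58 (SE 0.11) on the log2 scale, and control replicate 1 was the lowest library for both, at 26069 and 27123 normalized counts. Processed copies of both genes could draw reads. That none of these genes overlapped between the groups, control replicate 1 included, is fixed by this choice.

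The mitochondrial transcripts MT-RNR2, MT-RNR1, MT-ND1 and MT-ND2 were also among the 8 largest gains. MT-ND2 had 29411, 30524 and 32599 normalized counts against 19368 and 17997, with 12565 in control replicate 1 (0.72, SE 0.09, adjusted p = 5.97e-06). Of 13 mitochondrially encoded mRNAs 7 were higher (median 0.22), 4 without control replicate 3 and 11 with GC offsets. The count lower was 0 by edgeR, at an unadjusted p under 0.05 too, and 0 by DESeq2. Of 75 nuclear-encoded subunits of oxidative phosphorylation, 14 were higher and 7 lower (median 0.09), but 8 higher without control replicate 2, and 8 higher and 1 lower without control replicate 3. With GC offsets, or with control replicate 1 in the fit, 3 were lower. Of 81 cytosolic ribosomal proteins, 19 were higher and 4 lower (median 0.20), and the count higher was 5 and 11 without control replicates 2 and 3 and 12 without AAV9-AIPL1co replicate 1 or 2, and the count lower 0 without control replicate 3 or with control replicate 1. The share higher was thus below the 22.4% of all genes for the nuclear subunits and close to it for the ribosomal proteins.

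KRT7 (chr12:52232520-52252186), a keratin of simple epithelia, was among the 8 largest losses in normalized counts of genes without overlap. Its levels were 2266, 1841 and 2061 normalized counts with AAV9-AIPL1co against 8395 and 10623 in the control, with 3633 in control replicate 1 (-2.21, SE 0.14, adjusted p = 5.04e-09). KRT19, the other keratin tested of its list of epithelial and mesenchymal markers, was at few normalized counts, with 10.2, 4.76 and 5.58 against 4.71 and 9.08 and 0.83 in control replicate 1. KRT8 and KRT18, from the list of pigment epithelium markers, had log2 fold changes of -1.20 and -1.22, and they make up most of the shift in the summed level of the pigment epithelium markers. KRT8 was at 1902 in control replicate 1, inside its transduced range of 1867 to 1921.

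DCBLD2, a neuropilin-like membrane protein, had 8672, 9891 and 10873 normalized counts against 24311 and 23798, with 17872 in control replicate 1 (-1.29, SE 0.13, adjusted p = 3.78e-07). MAP1B, a microtubule-associated protein of growing axons, had 5054, 5219 and 4824 against 11611 and 11129, with 10929 in control replicate 1 (-1.18, SE 0.08, adjusted p = 1.32e-08). For MAP1B the control libraries were within a narrow range, replicate 1 included. NEAT1, the scaffold RNA of paraspeckles, had 17482, 19271 and 20054 against 21979 and 24622, with 47097 in control replicate 1. Its log2 fold change was -0.30 (SE 0.10, adjusted p = 0.0233). With GC offsets it was -0.13 and did not pass (adjusted p = 0.288).

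Genes were then grouped by pathway. Lysosome and autophagy genes were mostly higher: 17 of 29 tested rose, 3 fell and 9 did not pass (median 0.36), and 13 rose with control replicate 1 in the fit. MCOLN1 (ENSG00000090674.16, chr19:7522624-7534009), the calcium channel of lysosomes, had 518, 521 and 582 normalized counts against 94.2 and 89.1, with 171 in control replicate 1. Its log2 fold change was 2.56 (SE 0.20, adjusted p = 3.76e-08), the only DEG of the list. CTSA, a lysosomal carboxypeptidase, had 5198, 4778 and 4716 against 2162 and 2118, with 2143 in control replicate 1 (1.19, SE 0.12, adjusted p = 6.36e-07). In both genes the 3 control libraries were close to each other beside the distance to the transduced ones.

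NPC1, the cholesterol exporter of late endosomes, had 3392, 3390 and 3235 normalized counts against 1280 and 1013 (1.54, SE 0.13), but 4233 in control replicate 1. ATP6V1H, a subunit of the proton pump, rose by 0.97 (SE 0.12, adjusted p = 5.45e-06). The genes of the list that fell were ATP6V1A, NBR1 and TFEB. CTNS, the lysosomal cystine exporter, is outside the list and was noticed after its values were seen: it had 1109, 1160 and 1051 against 185 and 182, with 342 in control replicate 1 (2.60, SE 0.17, adjusted p = 7.95e-09).

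The enzymes of amino sugar metabolism parted in direction. UAP1L1 (ENSG00000197355.11, chr9:137077517-137084539), related to the enzyme that makes UDP-N-acetylglucosamine, had 697, 617 and 621 normalized counts against 108 and 101, with 271 in control replicate 1 (2.63, SE 0.19, adjusted p = 2.06e-08). AMDHD2, the deacetylase that takes N-acetylglucosamine 6-phosphate out of the pathway, had 606, 600 and 603 against 129 and 128, with 114 in control replicate 1 (2.23, SE 0.19, adjusted p = 7.43e-08). GNPDA1, the deaminase that turns glucosamine 6-phosphate back into fructose 6-phosphate, had 2694, 2686 and 2688 against 630 and 621, with 780 in control replicate 1 (2.10, SE 0.12, adjusted p = 3.96e-09). The transduced libraries differed little from each other in these genes, and the 3 of them were DEGs.

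Of 11 hexosamine genes tested, these 3 rose, 5 fell and 3 did not pass. The 5 that fell included GFPT1, PGM3 and UAP1 of the synthetic route, together with GNPDA2 and OGA. UAP1 had 438, 439 and 455 normalized counts against 1026 and 1080, with 676 in control replicate 1 (-1.25, SE 0.13, adjusted p = 6.07e-07). With GC offsets 4 were called higher and 3 lower. Tested against AAV9-GFP in the same fit, 3 were higher and 1 lower.

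Among sphingolipid enzymes 11 of 23 were higher, 4 lower and 8 did not pass (median 0.26), and 12 were higher with control replicate 1 in the fit. The count lower was 2 without control replicate 3 or with GC offsets. SPHK1, the kinase that makes sphingosine 1-phosphate, had 2582, 2707 and 2747 normalized counts against 706 and 629, with 1118 in control replicate 1 (2.00, SE 0.17, adjusted p = 6.61e-08). The ceramide synthases changed in both directions: CERS4 rose by 1.48 (SE 0.19) and CERS1, which shares its transcript with GDF1, by 1.60 (SE 0.28), while CERS6 fell by 1.17 (SE 0.20). With the ligand-making kinase SPHK1 and the receptor S1PR3, a kinase and a receptor of the same lipid were upregulated DEGs.

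In the BCL2 family, which sets the threshold of mitochondrial apoptosis, 10 of 16 genes were higher, 2 lower and 4 did not pass (median 0.44). HRK (ENSG00000135116.9, chr12:116856144-116881441), a BH3-only activator of cell death known from neurons, had 953, 895 and 828 normalized counts against 120 and 109, with 405 in control replicate 1 (2.97, SE 0.22, adjusted p = 2.43e-08). BCL2L11, which encodes the BH3-only protein BIM, had 198, 156 and 176 against 80.1 and 106, with 88.0 in control replicate 1 (0.92, SE 0.19, adjusted p = 8.32e-04). Higher genes were of both kinds, with the survival factors BCL2 and BCL2L1 beside BAX, BAK1, BID, BAD and BBC3.

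BMF, another BH3-only gene, had 63.4, 63.7 and 49.1 normalized counts against 11.3 and 4.95, but 63.1 in control replicate 1. The lower genes were BNIP3 and BNIP3L, both hypoxia-induced receptors of mitophagy, and BNIP3 had 278, 286 and 333 against 928 and 1001, with 354 in control replicate 1 (-1.69, SE 0.13, adjusted p = 3.14e-08). The list count depended on the controls: 5 members were higher with control replicate 1 in the fit, 5 without control replicate 3, and 6 without AAV9-AIPL1co replicate 2, without replicate 3 or with GC offsets.

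Of 33 genes of the hypoxia response and glycolysis 20 were lower (median -0.51). The count higher was 0 by edgeR, 2 at an unadjusted p under 0.05, and 1 by DESeq2. With control replicate 1 in the fit 2 were higher and 12 lower. PDK1 (ENSG00000152256.14, chr2:172555373-172608669), the kinase that keeps pyruvate out of mitochondria, had 52.2, 85.6 and 50.3 normalized counts against 455 and 438, with 208 in control replicate 1 (-2.82, SE 0.21, adjusted p = 2.33e-08). P4HA1, a collagen prolyl hydroxylase, had 192, 189 and 193 against 833 and 907, with 431 in control replicate 1 (-2.18, SE 0.15, adjusted p = 9.32e-09). CA9, the carbonic anhydrase often used as a hypoxia marker, had 6.52, 9.51 and 19.0 against 70.6 and 118, but 15.8 in control replicate 1, inside the transduced range.

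Genes of TGF-β and BMP signalling were more often lower: 13 of 25 fell and 4 rose (median -0.48), with 8 and 3 when control replicate 1 was in the fit. Among those that fell were ID4 and ID1, which block basic helix-loop-helix factors. ID4 (ENSG00000172201.12, chr6:19837370-19842197) had 34.5, 40.9 and 35.7 normalized counts against 232 and 287, with 118 in control replicate 1 (-2.81, SE 0.18, adjusted p = 5.68e-09). ID1 (chr20:31605283-31606515) had 194, 250 and 240 against 929 and 1003, with 903 in control replicate 1 (-2.08, SE 0.19, adjusted p = 2.18e-07). SMAD9, a signal carrier of BMP receptors, had 20.5, 20.0 and 22.3 against 109 and 120, with 149 in control replicate 1 (-2.45, SE 0.23, adjusted p = 2.13e-07). For these 3 genes no transduced library reached any control, which for ID4 and SMAD9 is fixed by the ranking above. Over the list 16 of 25 genes did not overlap the 3 controls in either direction, against 49.3% of all genes.

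BMP2, a ligand of this pathway, had 934, 1003 and 856 normalized counts against 253 and 182 (2.10, SE 0.16, adjusted p = 2.59e-08), but 1264 in control replicate 1. The BMP inhibitors NOG and BAMBI and the ligand TGFB1 were the other members that rose. YAP and TEAD targets had 3 of 19 genes higher and 9 lower, and CCN2, a matricellular target gene, had 357, 338 and 397 against 1020 and 1033, with 968 in control replicate 1 (-1.50, SE 0.15, adjusted p = 4.42e-07).

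Chaperones bear on AIPL1, which works with HSP90. Of 26 HSP90 and HSP70 chaperones and co-chaperones 4 were higher and 10 lower (median -0.17), with 1 higher without control replicate 2 and 2 without AAV9-AIPL1co replicate 1, without replicate 2, without control replicate 3 or with GC offsets. HSP90AA1 (chr14:102080742-102139699), the inducible cytosolic HSP90, had 8991, 9148 and 7968 normalized counts against 16214 and 16766, with 17128 in control replicate 1 (-0.92, SE 0.09, adjusted p = 2.45e-07). HSP90AB1, the constitutive form, had a log2 fold change of -0.49 (SE 0.08, adjusted p = 6.13e-05). HSP90B1, the form of the endoplasmic reticulum, had 3107, 3533 and 3429 against 7316 and 8061, with 7091 in control replicate 1 (-1.20, SE 0.10, adjusted p = 4.81e-08). All 3 HSP90 genes were among the 8 largest losses of genes without overlap. That they lay below every control library is therefore fixed by that choice.

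The unfolded protein response list had 11 of 18 genes lower and 2 higher (median -0.47), and 10 lower with control replicate 1. The count higher was 0 without AAV9-AIPL1co replicate 1 or without control replicate 3. DNAJC3 and SEL1L, a co-chaperone and an adaptor of protein disposal in the endoplasmic reticulum, fell by 0.82 (SE 0.14) and 0.78 (SE 0.11) on the log2 scale. CRELD2 had 266, 205 and 190 against 559 and 560, with 210 in control replicate 1 inside the transduced range. ATF4 targets went both ways, with 8 of 24 higher, 4 with control replicate 1 and 5 without control replicate 2 or 3, and with 5 lower. The amino acid transporter chain SLC3A2 rose by 1.24 (SE 0.17) and its cystine-carrying partner SLC7A11 fell by 1.37 (SE 0.15).

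Interferon-stimulated genes were examined because viral vectors can trigger innate sensing. Of 51 tested, 5 were higher and 17 lower (median -0.18), and with control replicate 1 in the fit 1 was higher and 17 lower, and without AAV9-AIPL1co replicate 3 the count higher was 8. SAMD9L (ENSG00000177409.12, chr7:93130056-93148385), an antiviral growth suppressor, had 27.0, 25.7 and 21.2 normalized counts against 146 and 202, with 197 in control replicate 1 (-2.81, SE 0.23, adjusted p = 4.77e-08). IFI44 had 43.8, 24.7 and 35.7 against 122 and 134, with 93.0 in control replicate 1 (-1.88, SE 0.19, adjusted p = 6.83e-07). The helicase gene DDX60 and the guanylate-binding GBP1 fell by 1.57 (SE 0.30) and 1.56 (SE 0.21). All 4 genes, picked by fold change among the members called, were below the 3 controls in each library. For SAMD9L this is fixed by the ranking above. Over the list 18 of 51 genes did not overlap the 3 controls in either direction, against 49.3% of all genes.

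IFIT1 and ISG15, both classical targets of interferon, had log2 fold changes of 0.48 (SE 0.23, adjusted p = 0.0895) and 0.25 (SE 0.21, adjusted p = 0.328). Of 14 nucleic acid sensors and adaptors 5 were higher and 5 lower, with 3 higher without control replicate 3. STING1, the adaptor of cytosolic DNA sensing, had 142, 119 and 89.4 normalized counts against 262 and 281, with 237 in control replicate 1 (-1.21, SE 0.17, adjusted p = 1.82e-05), while MAVS, the adaptor of RNA sensing, had 2089, 2150 and 2437 against 1499 and 1340, with 1514 in control replicate 1 (0.65, SE 0.10, adjusted p = 6.65e-05). TLR3, the endosomal receptor of double-stranded RNA, had 10.2, 4.75 and 2.23 against 26.4 and 20.6, with 11.6 in control replicate 1, at a depth of few reads. Antigen presentation by MHC class I had 4 of 17 genes higher and 4 lower, with 2 lower without AAV9-AIPL1co replicate 3 or without control replicate 2 or 3. The peptidase ERAP2 fell by 0.81 (SE 0.11).

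Among 25 NF-kB targets and regulators, 11 were higher and 3 lower (median 0.33), but with control replicate 1 in the fit 2 were higher and 6 lower (median -0.40), and without control replicate 3 the count higher was 5. CSF1, the macrophage growth factor, had 4871, 4411 and 3984 normalized counts against 1470 and 1234 (1.71, SE 0.17, adjusted p = 3.78e-07), with 3718 in control replicate 1. BIRC3, an inhibitor of apoptosis, had 38.2, 50.4 and 36.9 against 162 and 166 (-1.96, SE 0.20, adjusted p = 5.72e-07), with 562 in control replicate 1. Its neighbour BIRC2 fell by 1.01 (SE 0.13). The direction held for BIRC3 and BIRC2 under every alternative run.

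Of 14 genes of the IL-1 family and its signalling, 4 were higher and 4 lower, with 2 lower without AAV9-AIPL1co replicate 1, without control replicate 2 or with GC offsets. Besides IL1RN, TOLLIP, which restrains signalling from the receptor, rose by 1.16 (SE 0.13, adjusted p = 1.45e-06). The receptor IL1R1 had 33.5, 26.6 and 29.0 normalized counts against 112 and 85.8, with 83.0 in control replicate 1 (-1.72, SE 0.21, adjusted p = 4.20e-06). IL1B had 640, 812 and 770 against 316 and 206, but 4737 in control replicate 1, and its log2 fold change went from 1.51 to -1.24 with that library.

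Sterol and fatty acid synthesis and the immediate early genes rested on which controls were used. Of 34 sterol and fatty acid genes 25 were higher and 1 lower (median 0.80), and with control replicate 1 in the fit 4 were higher and 1 lower. INSIG1, the sterol-responsive retention factor, had 1798, 1729 and 1310 normalized counts against 358 and 271, but 1662 in control replicate 1. Of 17 immediate early genes 11 were higher and 2 lower (median 0.89), and with control replicate 1 5 were higher and 3 lower (median -0.05). FOS had 43.8, 40.9 and 17.9 against 3.77 and 8.25, and 726 in control replicate 1. EGR2, with 63 reads over the transduced libraries and 2 over the controls, a ratio of 23.7 with a counting interval of 6.30 to 200, had 8 reads in control replicate 1 and stayed above all 3.

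The genes of mitosis were mostly lower. Of 49 tested, 35 fell, 1 rose and 13 did not pass (median -1.02), 12 of them as DEGs, with 0 higher under GC offsets, and 25 were lower with control replicate 1 in the fit and 23 without control replicate 3. KIF14, a motor of cytokinesis, had 10.2, 13.3 and 7.82 normalized counts against 33.0 and 61.1, with 66.4 in control replicate 1 (-2.15, SE 0.31, adjusted p = 2.47e-05). NCAPG, a subunit of condensin, had 30.7, 42.8 and 43.6 against 130 and 199, with 56.5 in control replicate 1 (-2.08, SE 0.25, adjusted p = 3.43e-06). The letters TTTGAA, the core of the cell cycle homology region through which the DREAM complex acts on mitotic genes, were found on either strand within 250 bases before the start in 23 of 42 promoters of the list (54.8%), against 8.28% of promoters of genes tested and 13.6% of all. The stretch of NCAPG (chr4:17810879-17810978, plus strand, RefSeq on GRCh38.p14) shows it in capitals.
NCAPG: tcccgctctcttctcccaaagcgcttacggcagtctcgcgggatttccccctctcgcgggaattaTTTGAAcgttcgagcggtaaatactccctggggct

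DNA replication genes had 19 of 48 lower and 2 higher (median -0.36), but 4 lower and 3 higher with control replicate 1, 6 lower without control replicate 3 and 1 higher with GC offsets. In deoxynucleotide metabolism 10 of 19 were lower, 5 of them with control replicate 1 or without control replicate 3, and 2 were higher, but 0 without any of AAV9-AIPL1co replicates 1 to 3 or control replicate 2, and 1 with control replicate 1 or with GC offsets. RRM1, the large subunit of ribonucleotide reductase, had 482, 431 and 430 normalized counts against 1189 and 1321, with 716 in control replicate 1 (-1.49, SE 0.15, adjusted p = 6.36e-07). RRM2, the small subunit, had 106, 79.9 and 96.1 against 462 and 628 (-2.54, SE 0.23), with 76.4 in control replicate 1. Among regulators of entry into S phase 2 of 29 were higher (6 with GC offsets) and 8 lower (4 with control replicate 1), and CDK4 had 1510, 1481 and 1417 against 717 and 713, with 563 in control replicate 1 (1.04, SE 0.10, adjusted p = 5.72e-07). Of 26 p53 targets 9 were higher (5 with control replicate 1) and 7 lower, with 5 and 4 without control replicate 3, and MDM2, which degrades p53, fell by 1.31 (SE 0.12).

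**Figure D3:**
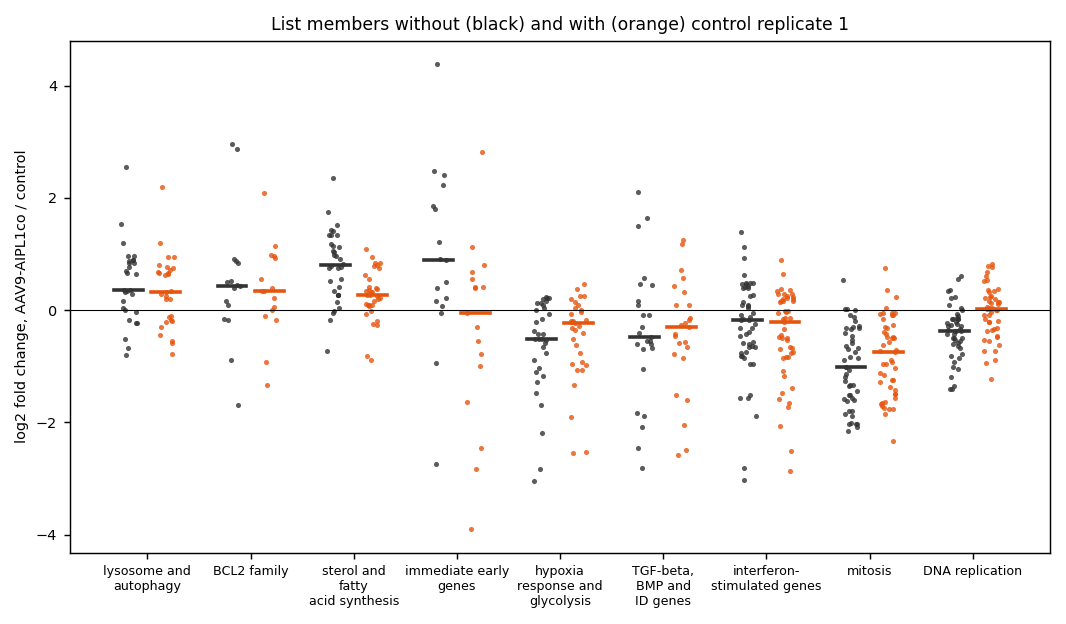
Log2 fold changes of the members of 9 gene lists with control replicate 1 left out (black) and with it in the fit (orange), 1 point per gene and a bar at each median. The medians of the lysosomal (0.36 to 0.32) and interferon-stimulated genes (-0.18 to -0.22) stay close, while those of the immediate early genes (0.89 to -0.05) and of sterol synthesis (0.80 to 0.27) move towards 0.

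Replication-dependent histone genes were higher where they passed the test: 9 of 18 rose (median 1.15), 5 of them as DEGs, and 8 with control replicate 1. The count lower was 0 by edgeR, at an unadjusted p under 0.05 too, and 0 by DESeq2. These mRNAs mostly end without a poly(A) tail, so that a poly(A)-selected library holds only a part of them, and reads of near-identical copies can be split. H2BC5 (chr6:26158122-26171349) had 124, 197 and 192 normalized counts against 20.7 and 23.9, with 57.3 in control replicate 1 (2.92, SE 0.28, adjusted p = 3.82e-07). H2BC11 had 27.9, 24.7 and 44.7 against 3.77 and 8.25, with 5.81 in control replicate 1 (2.36, SE 0.44, adjusted p = 3.14e-04). Of 11 replacement histones 4 rose and 1 fell (0 with control replicate 1), and the variant H2AZ1 had 1302, 1388 and 1530 against 663 and 841, with 542 in control replicate 1 (0.90, SE 0.12, adjusted p = 8.67e-06).

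Genes that silence unintegrated DNA, such as an incoming vector genome, had 10 of 17 members lower and 2 higher (1 with control replicate 1), at a median of -0.37. With GC offsets 3 were lower, and 5 without control replicate 3. In fatty acid oxidation and PPAR targets 8 of 25 were higher and 5 lower, with 5 and 3 without control replicate 2 2 and 5 with control replicate 1 and 5 higher with GC offsets, and EHHADH, a peroxisomal enzyme, had 43.8, 48.5 and 41.3 normalized counts against 144 and 169, with 105 in control replicate 1 (-1.81, SE 0.26, adjusted p = 2.23e-05). PPARA, the nuclear receptor of that pathway, had 285, 281 and 309 against 84.8 and 75.9, but 300 in control replicate 1.

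Secreted factors of blood vessels, clock genes and genes of the contractile apparatus went both ways. Of 11 angiogenic and antiangiogenic factors 2 were higher (1 with control replicate 1) and 5 lower. THBS1, the antiangiogenic matrix protein thrombospondin 1, had 231, 246 and 321 normalized counts against 994 and 1312, and 330 in control replicate 1, close to the transduced range. FGF2 had 1463, 1564 and 1518 against 3974 and 4455, with 2836 in control replicate 1 (-1.48, SE 0.10, adjusted p = 9.76e-09), and VEGFB had 2769, 2567 and 2337 against 912 and 973, with 1210 in control replicate 1 (1.44, SE 0.17, adjusted p = 2.40e-06). In the circadian clock 7 of 18 genes were higher and 6 lower (3 with GC offsets), with NPAS2, an activator, higher by 1.29 (SE 0.18) and PER2, a repressor, at -2.25 (SE 0.30) but inside the transduced range in control replicate 1. Contractile genes had 3 of 19 higher and 9 lower, with 1 higher without AAV9-AIPL1co replicate 1, without control replicate 2 or 3, with control replicate 1 or with GC offsets. Plasminogen activation had 2 of 10 higher and 5 lower (1 and 2 with control replicate 1), among them PLAT, the tissue activator, with 44.7, 39.0 and 53.6 against 106 and 119, and 150 in control replicate 1.

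Some lists bear on the vector, the retinoid and growth factor signals. Of 14 receptors and trafficking factors of AAV 6 were lower and 1 higher (median -0.17), with 2 higher with control replicate 1 in the fit and 3 with GC offsets. WDR11, which helps vector traffic through the Golgi, had 271, 320 and 276 normalized counts against 552 and 573, with 682 in control replicate 1 (-0.96, SE 0.12, adjusted p = 4.60e-06), and the receptor tyrosine kinase MET fell by 0.98 (SE 0.12) on the log2 scale. GPR108, a host factor of AAV entry, rose by 0.63 (SE 0.13). Of 17 genes of retinoid metabolism and response 4 were higher, 2 without control replicate 3, and 3 lower (1 with control replicate 1). TGM2, a retinoid-induced transglutaminase, had 376, 279 and 285 against 815 and 966, but 152 in control replicate 1.

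In the EGF family and its ERK feedback 7 of 24 genes were lower and 5 higher (3 without control replicate 3). The receptor ERBB4 had 7.45, 7.61 and 5.58 normalized counts against 23.5 and 29.7, with 39.9 in control replicate 1 (-1.93, SE 0.34, adjusted p = 1.76e-04), and the ligand TGFA had 203, 183 and 201 against 536 and 524, with 330 in control replicate 1 (-1.44, SE 0.13, adjusted p = 2.39e-07). Both stayed below every control. Over the list 11 of 24 genes did not overlap the 3 controls in either direction, against 49.3% of all genes. Of 13 Wnt genes 3 were higher and 2 lower, and the ligand WNT2B had 55.9, 53.3 and 68.1 against 227 and 233, with 288 in control replicate 1 (-1.96, SE 0.15, adjusted p = 3.42e-08). Of 9 genes of shelterin and its partner complex CST, which protect telomeres, 3 were lower and 2 higher (1 higher without AAV9-AIPL1co replicate 2, without control replicate 2 or 3, with control replicate 1 or with GC offsets), and TERF1 fell by 1.08 (SE 0.14).

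CYP1A1 and CYP1B1, the textbook targets of the aryl hydrocarbon receptor, were noticed only after their values were seen. CYP1A1 (ENSG00000140465.15, chr15:74719542-74725536) had 996, 1234 and 1372 normalized counts with AAV9-AIPL1co, 163 and 168 in the control and 109 in control replicate 1, a log2 fold change of 2.86 (SE 0.23, adjusted p = 4.32e-08). CYP1B1 (ENSG00000138061.12, chr2:38066973-38109902) had 1010, 1004 and 651 against 265 and 232, with 257 in control replicate 1 (1.84, SE 0.21, adjusted p = 2.57e-06). The groups were well apart in both, and control replicate 1 lay with the other controls. AHR, the receptor itself, had 225, 273 and 281 against 169 and 168, with 274 in control replicate 1 (0.62, SE 0.18, adjusted p = 0.00836), so that its groups overlapped once that library was counted.

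The study's selection of genes for sensory disorders included MAF, WHRN, ANGPTL2 and UCN, which were chosen from these libraries, so that their direction is not independent evidence. WHRN, the scaffold protein whirlin of photoreceptor cilia and hair cells, had 1055, 1069 and 1074 normalized counts against 264 and 260, with 394 in control replicate 1 (2.02, SE 0.12, adjusted p = 3.96e-09). ANGPTL2, a secreted glycoprotein, had 621, 646 and 646 against 114 and 128, with 204 in control replicate 1 (2.39, SE 0.17, adjusted p = 1.54e-08). The transcription factor MAF and the neuropeptide UCN had log2 fold changes of 2.68 (SE 0.28) and 2.41 (SE 0.26), without overlap. PPIA, the reference gene of the study's qPCR, had 1957, 1769 and 1875 against 1519 and 1696, with 1124 in control replicate 1 (0.22, SE 0.11, adjusted p = 0.108).

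The libraries carry 2 dates in their file names, and what these dates stand for is not given. AAV9-AIPL1co replicate 1 and control replicates 2 and 3 share the second date, and AAV9-AIPL1co replicates 2 and 3 and control replicate 1 share the first. Each date thus has an arm of 1 library, which is assumed to vary like the others: the fit within the first date took its spread from the pairs of AAV9-AIPL1co, AAV9-GFP and AAV9-AIPL1wt libraries, and that within the second from the 2 controls alone. Calls within a date are therefore less firm than those above. Among 13699 genes tested in both dates and in the comparison as a whole, 361 were upregulated DEGs within the first date (2.64%) and 312 downregulated (2.28%), and within the second 290 (2.12%) and 199 (1.45%). These comparisons share no library. The DEGs of both dates numbered 80 up, which is 22.2% of the first date's list and 27.6% of the second's, and 44 down, 14.1% and 22.1%. The effect differed between dates, by the interaction of group and date, in 3123 of 13693 genes (22.8%). That test compares the same arms of 1 library, with the spread taken from the groups that have more than 1 library at a date. Control replicate 1 is the only control of the first date, so that the date and this library cannot be told apart.

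Genes with the same sign in both dates included IL1RN (log2 fold changes of 3.39 in the first and 4.44 in the second), GAS1 (4.78 and 3.05), SAMD9L (-3.02 and -2.66), SMAD9 (-2.78 and -2.46), GNPDA1 (1.81 and 2.13), AMDHD2 (2.43 and 2.26) and CYP1A1 (3.61 and 2.62). MIR210HG was lower by both, at -1.61 and -4.40. The median of the lysosomal list was 0.16 and 0.51, that of mitosis -0.08 and -1.20, that of sterol synthesis -0.31 and 1.11, and that of DNA replication 1.34 and -0.38. Lysosomal genes thus had medians above 0 by both dates, and the medians of sterol synthesis and DNA replication were of opposite sign.

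**Figure D4:**
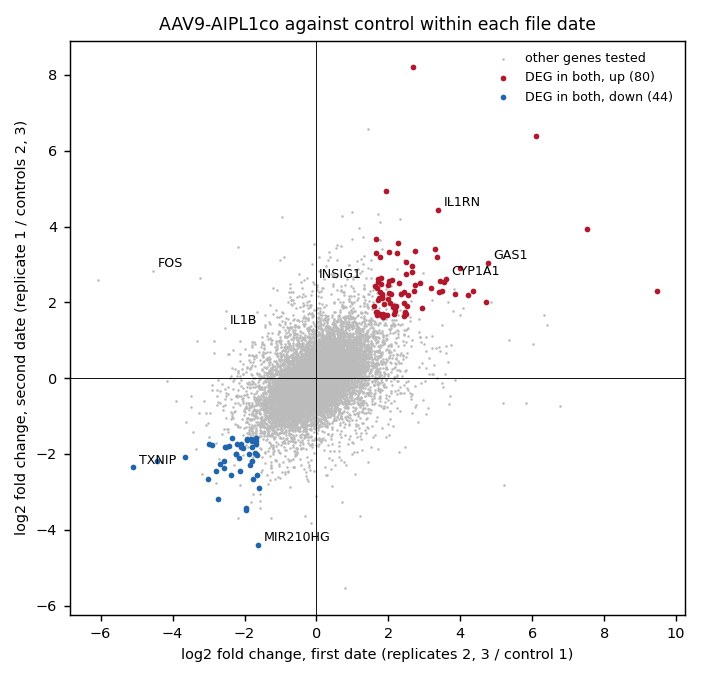
Log2 fold change of each gene within the first date (horizontal axis, AAV9-AIPL1co replicates 2 and 3 over control replicate 1) and within the second date (vertical axis, replicate 1 over control replicates 2 and 3). The 80 genes upregulated (red) and the 44 downregulated (blue) in both lie in the upper right and lower left, and FOS and IL1B lie in the upper left, with opposite signs.

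AAV9-GFP, a vector of the same serotype with a green fluorescent protein gene, gives a level beside these values in cells that received a vector without AIPL1. The mean of its 3 libraries was 23.8 normalized counts for IL1RN, 30.7 for ABCB5, 17.2 for PPARGC1A and 132 for HRK, beside 17.3 and 18.8, 31.4 and 40.5, 16.0 and 19.0, and 109 and 120 in control replicates 2 and 3. Tested against AAV9-GFP in the same fit, AAV9-AIPL1co was higher by 4.05 on the log2 scale for IL1RN (SE 0.23, adjusted p = 2.68e-09), by 3.87 for ABCB5 (SE 0.20), by 3.45 for PPARGC1A (SE 0.21) and by 2.75 for HRK (SE 0.19). These 4 genes were chosen by their rise in the same AAV9-AIPL1co libraries, so that these tests are not independent of the choice. The mean of AAV9-GFP was 353 for CYP1A1, 854 for GNPDA1 and 150 for MCOLN1, between those controls and the AAV9-AIPL1co libraries. For downregulated genes it was 103 for MIR210HG, 189 for PDK1, 92.6 for SAMD9L and 10901 for HSP90AA1, again between them, and 960 for ID1, within the range of those controls. Over the 280 upregulated DEGs the median log2 fold change of AAV9-GFP against the same controls was 0.49, and over the 200 downregulated DEGs -0.63, where AAV9-AIPL1co had 2.14 and -1.90 by the choice of the sets. In some lists the medians of AAV9-GFP and AAV9-AIPL1co were alike. They were -0.42 and -0.32 for hexosamine genes, 0.24 and 0.22 for mitochondrially encoded mRNAs, and -0.35 and -0.37 for genes that silence unintegrated DNA. In others they were further apart, such as -0.40 and -1.02 for mitosis and 0.12 and 0.36 for lysosomal genes.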

How the data were processed

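RNA sequencing of 12 libraries gave raw counts per gene, which the authors deposited after aligning 60-base reads with STAR 2.7.10b to GRCh38 and counting uniquely aligned reads with HTSeq 0.11.1 over the merged exons of each gene, without strand. The methods name Gencode 43, and positions here are from Gencode 44. In R 4.3.3, edgeR 4.0.16 fitted a quasi-likelihood model with group as its only term to 11 libraries of 4 groups, after filterByExpr and TMM scaling, with the rows without a gene and the 4 vector entries left out. The Benjamini-Hochberg adjustment covered all 13896 genes, SE is the log2 fold change over the square root of F, and normalized counts are counts per effective library size, scaled to the geometric mean of the sizes. The common biological coefficient of variation was 0.101. The fit was tested on simulated data. A call needs an adjusted p under 0.05, and a DEG, by the thresholds of the study, needs one under 0.005 together with 1.58 or more on the log2 scale in either direction.

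Genes named are the 12 DEGs each way with the largest fold change at a mean of 50 or more normalized counts and without overlap. The 8 largest differences in counts each way, among genes called and without overlap, were named too. So were up to 4 members of each list, neighbouring runs, and genes named by the study. Further list members, CYP1A1, CYP1B1, CTNS and ARRDC4 were named after their values were seen, and a few genes that these rules name are not reported here. The comparison, the gene lists and these rules were chosen with earlier results of these data known. A counting interval or a count of 0 covers counting error only. Alternatives tried were a fit to all 12 libraries, the date in the file names as a term, both together, each date alone, the replicate number as a block, GC offsets, both of these, relative log expression, upper quartile and library size scaling, no filter or 1 CPM in 3 libraries, only the 5 libraries compared, DESeq2 1.42.0, limma 3.58.1 with voom, a test against the fold threshold, a DEG cutoff of 0.05, and leaving out each library in turn.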

Additional observations from a re-analysis of the deposited data

Results flagged for a closer look

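The effect of AAV9-AIPL1co differed between the dates in the file names, by a test of the interaction of group and date, in 3123 genes and in 58 of the 124 genes followed by name. In 9 of these the log2 fold change had opposite signs, and the values are given as the difference of the second date from the first. IL1B differed by 3.90 (-2.55 in the first date and 1.33 in the second, adjusted p = 1.35e-11) and FOS by 7.41 (-4.56 and 2.84, adjusted p = 3.22e-09). The sterol-regulated genes INSIG1 and NPC1 differed by 2.66 and 1.94, and BMP2 by 2.57. BMF differed by 3.14, RRM2 by -2.54, TGM2 by -2.12 and KRT8 by -1.15. Each date has an arm of 1 library, assumed to vary like the others, and control replicate 1 is the only control of the first date in each of them, so that the date and this library cannot be told apart.

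Reads of the codon-optimized AIPL1 entry lay outside the test of genes. They numbered 11, 13 and 19 in AAV9-AIPL1co replicates 1 to 3, against 0 in each control library. A count of 0 was read as up to 3 reads, a working limit for counting error and not a strict maximum. The groups compared held 2 and 3 libraries, so that no search for single outlying libraries was made.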

How the results depend on the processing

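Direction and side of the threshold held under every alternative for 94 of 124 genes followed by name, and for 117 when the alternatives with control replicate 1 are set aside. With all 12 libraries there were 156 upregulated and 128 downregulated DEGs, with the file date as a further term 150 and 123, and the first date alone gave 372 downregulated over all genes tested in it, 312 of them among genes also tested in the second date and in the comparison as a whole. A test against the 3-fold threshold itself left 23 and 7. Leaving out 1 library at a time gave 2069 to 2839 genes called higher, 2138 to 2988 called lower, 196 to 284 upregulated and 129 to 214 downregulated DEGs, and the low ends were all without control replicate 3. Without a filter there were 348 and 262 DEGs. Library size alone moved the median log2 fold change to -0.06, with 2878 genes higher and 3617 lower.

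Same-numbered libraries are not said to be paired, and their deviations correlated at 0.04 and 0.07 over the 2 pairs. A replicate block gave 3093 genes higher, 3445 lower and 281 and 201 DEGs, and with GC offsets 2782, 2790, 255 and 160.

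Direction turned with all 12 libraries, and with the date as a further term, in IL1B (-1.24 and -1.06) and FOS (-2.83 and -2.24), and with GC offsets, without and with the block, in ISG15 (-0.10 and -0.22). Within the first date alone it turned in BMF (-0.12), RRM2 (0.22), NPC1 (-0.33), INSIG1 (-0.10), BMP2 (-0.41), IL1B (-2.55), KRT8 (0.0090), TGM2 (0.92) and FOS (-4.56). The cause was not tested, except that the first date has control replicate 1 as its only control. With 2 controls in the test, a single control library decides many of these counts, and 63.3 and 13.5 normalized counts as the median levels of upregulated DEGs leave the sampling of low genes as a limit.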
